A study of Mus musculus with 20 samples.

Results

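Trimethylation of histone H3 at lysine 4 (H3K4me3) was compared between wild type embryoid bodies (EBs) and wild type embryonic stem (ES) cells of the mouse line TL1, gene by gene, with 1 chromatin immunoprecipitation library on each side. All 20462 genes of the deposited H3K4me3 table entered, and no gene was chosen by its value. The 2 libraries are part of a series of 20 samples in which p150 (Chaf1a), a subunit of the chromatin assembly factor CAF-1, was knocked out with CRISPR/Cas9 to ask how CAF-1 affects differentiation. ES cells were kept in ES medium with 15% fetal bovine serum and leukaemia inhibitory factor (LIF). EBs are aggregates that form when ES cells leave that state, and here they were kept in the same medium without LIF. The age of the EBs is not stated in the labels used here. EBs were dissociated with trypsin before fixation, and the chromatin of both was cut with micrococcal nuclease and sonicated before pull-down with the antibody ab8580. Wild type RNA (2 libraries per group), wild type H3K27me3 (1 library per group) and H3K4me3 of p150 knockout ES cells and EBs (1 library per group) were used for comparison, and the input libraries were not analysed here.

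H3K4me3 sits at the start sites of genes that are transcribed or held ready for transcription, and it is laid down by the SET1 and MLL complexes. In ES cells many genes of later lineages carry it together with H3K27me3, the mark of Polycomb repression, a state called bivalent. CpG-rich promoters recruit SET1 and MLL complexes through proteins that bind unmethylated CpG, whereas CpG-poor promoters depend more on gene-specific factors. On leaving pluripotency, ES-specific promoters and enhancers are shut down and lineage promoters become active in a part of the cells.

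The promoters of 5 genes are printed as examples of different H3K4me3 ratios, chosen with their values known. Klf4 held its H3K4me3 in EBs, Nanog and Spp1 were lower, and Msx1 and Col3a1 were higher. Each sequence is the RefSeq window from 250 bases before to 50 bases after an annotated start (build GRCm38.p6, shown 5′ to 3′ on the gene's strand), with CG dinucleotides in capitals.

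Klf4, chr4:55532426-55532725, minus strand: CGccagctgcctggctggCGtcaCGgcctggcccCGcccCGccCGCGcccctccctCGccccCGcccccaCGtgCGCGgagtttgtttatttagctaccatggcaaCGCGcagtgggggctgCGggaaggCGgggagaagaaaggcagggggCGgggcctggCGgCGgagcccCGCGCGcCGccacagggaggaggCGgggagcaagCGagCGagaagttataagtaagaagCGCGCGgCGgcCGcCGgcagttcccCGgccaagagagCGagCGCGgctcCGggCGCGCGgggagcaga
Nanog, chr6:122707239-122707538, plus strand: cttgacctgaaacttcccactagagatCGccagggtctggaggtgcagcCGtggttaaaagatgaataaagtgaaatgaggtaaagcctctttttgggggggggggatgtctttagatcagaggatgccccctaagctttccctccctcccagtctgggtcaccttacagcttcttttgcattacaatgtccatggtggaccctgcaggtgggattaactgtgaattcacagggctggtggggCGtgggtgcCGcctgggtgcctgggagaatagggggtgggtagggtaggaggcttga
Spp1, chr5:104434861-104435160, plus strand: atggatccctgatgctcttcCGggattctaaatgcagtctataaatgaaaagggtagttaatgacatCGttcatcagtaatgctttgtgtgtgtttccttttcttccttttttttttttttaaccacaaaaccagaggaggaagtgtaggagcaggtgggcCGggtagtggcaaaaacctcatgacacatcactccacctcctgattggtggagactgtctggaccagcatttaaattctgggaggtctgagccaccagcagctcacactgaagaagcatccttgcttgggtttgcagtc
Msx1, chr5:37824536-37824835, minus strand: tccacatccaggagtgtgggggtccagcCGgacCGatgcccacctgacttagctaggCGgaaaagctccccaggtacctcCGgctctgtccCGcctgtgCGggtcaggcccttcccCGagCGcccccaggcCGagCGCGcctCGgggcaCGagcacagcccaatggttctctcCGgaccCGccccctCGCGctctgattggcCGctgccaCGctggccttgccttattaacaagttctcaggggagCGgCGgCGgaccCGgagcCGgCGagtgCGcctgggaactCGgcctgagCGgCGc
Col3a1, chr1:45311288-45311587, plus strand: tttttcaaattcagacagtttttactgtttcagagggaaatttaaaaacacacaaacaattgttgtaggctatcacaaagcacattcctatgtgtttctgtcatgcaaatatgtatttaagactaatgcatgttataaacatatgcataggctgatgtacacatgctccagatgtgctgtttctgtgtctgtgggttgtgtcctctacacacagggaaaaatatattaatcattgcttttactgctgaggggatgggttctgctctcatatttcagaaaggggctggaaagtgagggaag

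The Klf4 window holds 40 CG dinucleotides and the Msx1 window 29, against a median of 7 over all 32851 RefSeq windows. The median was 21 over the 12337 genes with enough signal that could be matched to a window. The Nanog window holds 4, that of Spp1 3 and that of Col3a1 0. The letters TATAAA, searched on both strands, occur in the Spp1 and Col3a1 windows and in 13.6% of all windows. Single genes of the classes overlap in this count. The windows of Fgf4 and Tfcp2l1, both lower in EBs, hold 28 and 21, and that of Lin28a, within 2-fold, holds 10. The 5 printed windows and these 3 exceptions were picked, and neither set shows whether CpG content differs between the classes. A CpG comparison over whole classes is not reported, because a RefSeq window could be matched by name to only 78.4% of the genes with enough signal, 74.4% of those higher in EBs and 76.5% of those lower, which makes such a check void.

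The 2 libraries had similar summed signals, but the sum over olfactory and vomeronasal receptor genes was lower in EBs. Summed over the table, the deposited signal was 253243 in ES cells and 280534 in EBs. Values are whole multiples of 0.02668 (within 0.02 of a step), apart from a floor of 0.004 in 1035 genes in ES cells and 1193 in EBs, so that a value near 0.1 rests on very few steps. The 1426 olfactory and vomeronasal receptor genes, which neither cell type is known to use, summed to 139.7 in ES cells and 89.2 in EBs. Their lower sum in EBs moves with the many low-signal genes that were lower in EBs, and its part in the counts was not tested. Centring on the median receptor gene gave the same counts as no centring (1791 higher and 1658 lower). Only 18 of the 1426 receptor genes reached a mean signal of at least 1. The median receptor gene lies below that level, on few steps, and cannot show whether the lower sum is a shift shared by these genes. Across all 20462 genes, log2 values correlated at 0.96 between the libraries compared, at 0.99 between wild type and knockout ES cells, and at 0.97 between wild type and knockout EBs (Pearson, across genes, given as a description).

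H3K4me3 differed at least 2-fold between EBs and ES cells in about 1 in 5 of the genes that could be compared. A mean signal of at least 1 over both libraries was reached by 15731 genes, and 4731 lay below it. A gene near 0 in 1 library passed only if it had signal in the other. Log2 ratios were taken after adding 0.1 and were centred on the median gene, which stood at 0.17 as deposited. With no replicate, no ratio has an error and none was tested. On this scale 1273 genes (8.09%) were at least 2-fold higher in EBs and 2097 (13.3%) at least 2-fold lower. The balance depends on the scaling, since without centring 1791 were higher and 1658 lower, whereas scaling to the receptor genes' sum gave 6142 and 642. Because EBs mix cell types, a lower signal in fewer cells and a lower signal per cell cannot be told apart.

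**Figure D1:**
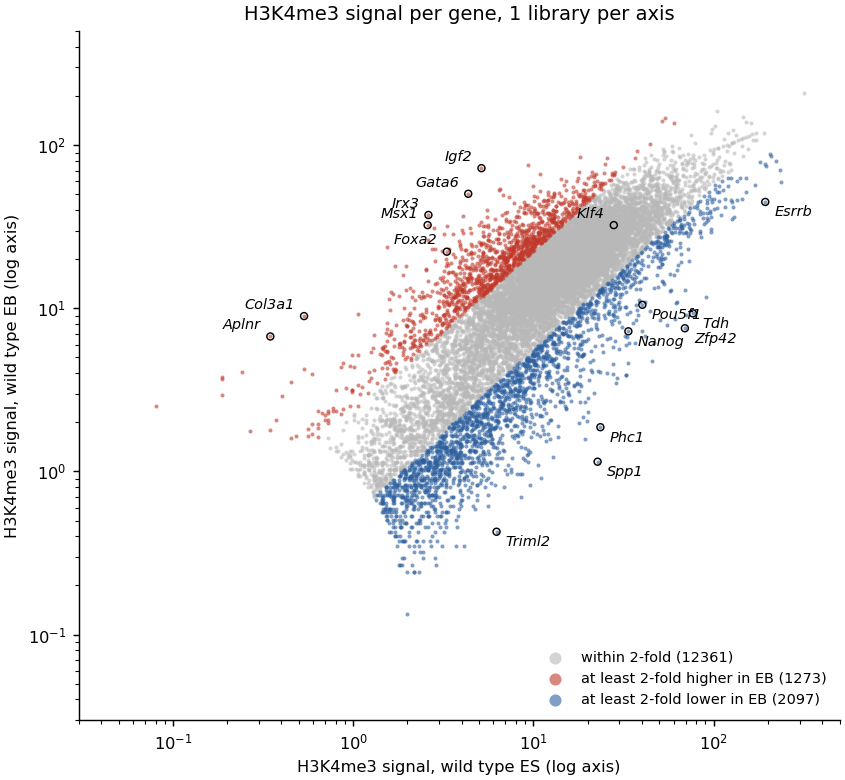
Each point is 1 of the 15731 genes with a mean H3K4me3 signal of at least 1, with the ES signal on x and the EB signal on y, both on log axes. The 1273 red genes were at least 2-fold higher in EBs and the 2097 blue genes at least 2-fold lower after centring; Irx3, Msx1, Gata6 and Igf2 stand far above the grey band and Zfp42, Phc1 and Spp1 far below it.

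Genes of both classes had lower median signals in ES cells than genes within 2-fold. The classes are defined by the ratio of the same 2 libraries. This favours low ES values in the higher genes and low EB values in the lower genes. The median of the 1273 higher genes was 6.22 in ES cells and 20.1 in EBs. The 12361 genes within 2-fold had medians of 13.9 and 17.0. The 2097 lower genes had 6.54 in ES cells and 2.24 in EBs. Median locus lengths were 17.6 kb for the higher genes, 26.6 kb for those within 2-fold and 24.9 kb for the lower genes. Signal grows with locus length, so these levels are not compared at equal length. Most differences were moderate. Of the higher genes 1114 were between 2-fold and 4-fold, 143 between 4-fold and 8-fold and 16 above 8-fold, and of the lower genes 1667, 391 and 39.

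The shares depend on how much signal a gene has. Among the 2766 genes with a mean signal of 1 to 5, 40.6% were lower in EBs and 5.68% higher. Among the 4792 genes with a mean of at least 20, 6.51% were lower and 6.34% higher. Genes with loci under 5 kb were more often higher (17.98% of 1496) than genes of 10 to 30 kb (5.69% of 4449), while the shares that were lower, 12.1% and 13.2%, were close. Of the 2097 lower genes 1122 had a mean signal of 1 to 5, and the strongly marked genes named here are in the minority.

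Among named genes with a known locus the highest was that of Aplnr, the apelin receptor of mesoderm and endothelium, at 0.347 in ES cells and 6.72 in EBs (centred log2 ratio 3.76). Lum, an extracellular matrix proteoglycan, went from 0.080 to 2.51, which is 3 steps against 94. Col3a1, a fibrillar collagen of connective tissue, went from 0.534 to 8.96. These 3 genes thus had almost no mark in ES cells, and their values rest on few steps there.

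Several developmental regulators rest on more steps. Irx3 and its neighbour Irx5, homeobox factors of neural and limb patterning, went from 2.61 to 37.4 and from 2.80 to 31.0. Msx1, a homeobox target of BMP signalling, went from 2.59 to 32.4. Gata6, which directs primitive endoderm and cardiac mesoderm, went from 4.35 to 50.4. Igf2, the imprinted fetal growth factor, reached 72.3 from 5.15, 12.3-fold higher on the centred scale. The calpain-family gene Capn6 (0.187 to 3.68) and Cd93, a receptor of endothelium (0.240 to 4.08), complete the 10 highest ratios. Unlike the regulators, Capn6 and Cd93 rest on only 7 and 9 steps in ES cells. By limma at an adjusted p under 0.05, RNA rose in 36.1% and fell in 24.8% of all 15428 genes tested. RNA of all 10 genes rose, but 9 of them, all except Igf2, had under 1 FPKM in both ES libraries and entered the test only through EBs, so that little else could be found. The same limit holds for other lineage genes with under 1 FPKM in ES cells. The 10 had log2 changes from 3.42 for Irx5 to 9.60 for Igf2 (limma adjusted p = 5.73e-05 and 1.21e-05).

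The lowest ratio was that of Spp1, which encodes osteopontin and is strongly expressed in ES cells, went from 22.7 to 1.15, 20.5-fold lower on the centred scale. Zfp42 (Rex1), a naive ES cell marker, went from 69.3 to 7.55. Phc1, a subunit of Polycomb repressive complex 1, went from 23.5 to 1.87. The others were Triml2 (6.24 to 0.427), Sult6b1 (11.0 to 0.907), Accsl (8.48 to 0.694), Zfp534 (12.8 to 1.23), Chrna9 (19.8 to 2.03), Plac8 (10.6 to 1.09) and Hus1b (2.00 to 0.133). The Hus1b locus overlaps Exoc2, and its EB value is 5 steps. RNA fell for all 10 genes, by 4.91 on the log2 scale for Zfp42 and by 4.87 for Spp1 (limma adjusted p = 3.15e-05 and 6.02e-05). Sult6b1, Accsl, Zfp534, Chrna9 and Hus1b had under 1 FPKM in both wild type EB libraries. For these genes little but a fall could be found.

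Most pluripotency genes had less of the mark in EBs. Of 41 listed genes of naive and core pluripotency, 27 were at least 2-fold lower in EBs, 14 were within 2-fold and 0 were higher, with a median ratio of -1.74 against 0 over all genes. RNA fell for 39 of the 41, with a median log2 change of -3.75.

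The master regulators Pou5f1 and Nanog were lower in both mark and RNA. Pou5f1 (Oct4) had 40.2 in ES cells and 10.5 in EBs, with RNA of 1298 and 1233 FPKM in the ES libraries and 35.3 and 65.9 in the EB libraries. Nanog had 33.6 and 7.23, with RNA of 229 and 184 FPKM against 8.67 and 15.8. Esrrb, an orphan nuclear receptor that sustains naive pluripotency, had 193 and 44.9. This is the highest ES value of the list, over a long locus of 160512 bases.

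Metabolic, epigenetic and signalling genes of the naive state followed. Tdh, threonine dehydrogenase, went from 76.8 to 9.31. Tet1, the 5-methylcytosine oxidase of ES cells, went from 69.2 to 12.9, and Dnmt3l, the cofactor of de novo DNA methylation, from 34.1 to 6.14. The developmental pluripotency genes Dppa2 (18.8 to 2.16), Dppa4 (19.4 to 2.67) and Dppa5a (9.20 to 1.25) were all more than 4-fold lower. The Nodal co-receptor Tdgf1 (36.5 to 6.16), Gdf3 (29.1 to 3.74) and the Nodal antagonists Lefty1 (17.3 to 6.80) and Lefty2 (17.2 to 4.46) were lower too. Fgf4, the autocrine growth factor of ES cells, went from 27.7 to 9.23.

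The 14 genes within 2-fold include several whose RNA fell. Klf4, a Krüppel-like factor of the naive network, had 27.9 in ES cells and 32.4 in EBs. Its RNA was 129 and 107 FPKM in ES cells and 5.74 and 9.06 in EBs, a log2 change of -3.84 (limma adjusted p = 5.56e-05). Klf2 (26.6 to 31.0, RNA change -3.11), the LIF target Socs3 (26.4 to 35.8, -3.47), Tbx3 (32.5 to 35.1, -2.32) and the ETS factor Etv4 (24.1 to 26.7, -2.75) held the mark in the same way. Sox2, shared by pluripotent and neural cells, had 26.8 and 21.5, while RNA went from 280 and 297 FPKM to 41.3 and 62.5.

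H3K27me3 signal was higher in EBs over several genes that kept H3K4me3. It was 0.907 in ES cells and 13.8 in EBs over Klf4, 0.053 and 13.7 over Klf2, 0.080 and 9.48 over Socs3 and 0.053 and 6.76 over Sox2. H3K27me3 signals are given as deposited, and those of the 2 libraries move in different steps, so their scaling may differ. The median gene stood at a log2 ratio of -0.060 between them. Zfp42 and Spp1, which were lower in H3K4me3, had little H3K27me3 in EBs (0.920 and 0.520). Pou5f1 (0.133 to 16.6), Fgf4 (0.187 to 32.7) and Tfcp2l1 (1.47 to 19.8) were lower in H3K4me3 and higher in H3K27me3, so H3K27me3 was higher in members of both groups.

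Genes with a large RNA fall divided in the same way. Of the 358 genes with enough H3K4me3 signal whose RNA fell by 2 or more on the log2 scale, 220 were at least 2-fold lower in H3K4me3, 138 were within 2-fold and 0 were higher. The 138 had median H3K4me3 signals of 22.1 in ES cells and 18.5 in EBs, and the 220 had 17.96 and 5.03. H3K27me3 was at least 2-fold higher in EBs in 81.7% of the 104 genes of the first group with enough H3K27me3 signal. It was higher in 66.9% of 160 of the second, against 15.9% of all 12349 genes compared for that mark (7.85% were lower). Loci under 10 kb of the 2 groups had median H3K27me3 signals of only 0.374 and 0.240 in ES cells. Such genes reach a mean of at least 1 mainly through EBs, so the high shares follow in part from the filter. The 15.9% includes genes already marked in ES cells and is not a matched share. Transcription factors of the early epiblast are among the genes within 2-fold. Foxd3 had 11.2 and 12.2, with an RNA change of -4.64 and H3K27me3 of 1.07 and 28.6. Gbx2 had 22.1 and 23.6, with -4.69 and 2.67 and 36.1, and Utf1 had 16.6 and 10.2, with -4.71 and 0.080 and 16.0, its H3K4me3 ratio of -0.86 being close to the 2-fold line. These 3 were named after their values were seen.

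Germline genes, many of them kept silent outside germ cells by DNA methylation, were lower. Of 32 listed genes, 21 passed the signal filter, and 17 of these were at least 2-fold lower and 0 higher. RNA fell for 17 of 30 tested and rose for 0, against 24.8% and 36.1% of all genes tested. Some, such as Hormad1, had under 1 FPKM in both wild type EB libraries, so that a rise could hardly be found. Tdrd12, a piRNA pathway gene, went from 27.7 to 3.98. Dppa3 (Stella), also on the pluripotency list, went from 8.19 to 1.65. The meiotic genes Hormad1 (2.64 to 0.534), Sycp3 (3.04 to 0.987) and Stra8 (2.59 to 0.747) had little mark even in ES cells, a signal range in which 40.6% of all genes were lower.

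Formative and primed epiblast genes went both ways. Of 20 genes 6 were higher, 2 lower and 12 within 2-fold. Fgf5, the classical primed marker, went from 3.25 to 18.2 and Fgf8 from 5.79 to 19.3. The cell adhesion gene Cdh2 (N-cadherin) went from 14.9 to 46.7. Dnmt3b, the de novo DNA methyltransferase, kept its signal (27.1 and 33.8) while RNA went from 113 and 107 FPKM to 21.8 and 30.3. Otx2 was at 7.92 and 9.60, and Nodal was lower, at 31.0 and 15.8.

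Mesoderm and primitive streak genes had the highest median ratio of the lists. All 34 genes in the table passed the filter, 25 were at least 2-fold higher, 0 were lower, and the median ratio was 1.57. RNA rose for 27 of the 30 tested. Of the streak factors, T (brachyury) went from 2.43 to 6.403, Eomes from 7.74 to 22.2 and Gsc from 3.36 to 16.5, whereas Mixl1 (4.64 to 8.08), Mesp1 (5.18 to 9.31) and Tbx6 (2.48 to 1.73) stayed within 2-fold. These 6 genes act early in gastrulation.

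Many factors of later mesoderm were higher. Hand2 and Hand1, basic helix-loop-helix factors of heart and limb, went from 3.17 to 28.7 and from 4.48 to 22.0. Foxc1 and Foxc2, forkhead factors of paraxial mesoderm and vessels, went from 4.08 to 36.9 and from 4.99 to 32.5. Osr1 of intermediate mesoderm went from 1.71 to 18.2, Twist1 from 4.03 to 30.1, Prrx1 from 4.46 to 31.2 and Pdgfra, the receptor of early mesenchyme, from 7.36 to 47.9. The cardiac factors Isl1 (3.68 to 20.8), Tbx20 (5.23 to 27.9) and Nkx2-5 (4.32 to 14.5) were higher as well, while Meox1 of somites (11.3 to 9.50) and Tbx5 (5.68 to 8.80) were within 2-fold, and the RNA of Tbx5 rose by 3.39 on the log2 scale.

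Endoderm regulators had more of the mark in EBs, while several liver-type secreted proteins had little signal in either library. Of 33 listed genes 28 passed, 14 were higher and 2 lower. The transcription factors Foxa2 (3.31 to 22.3), Foxa1 (5.15 to 20.0), Sox17 (6.88 to 20.8), Gata4 (8.30 to 30.3) and Cdx2 (5.34 to 28.0) were all higher. Afp, alpha-fetoprotein of visceral endoderm, was lower, at 1.65 and 0.507, although its RNA rose by 6.58 on the log2 scale. Its mean signal lies in the range of 1 to 5, in which 40.6% of all genes were lower. Ttr (0.480 and 0.854), Alb (0.320 and 0.320) and Apoa2 (0.267 and 0.160) were below the filter, and Ttr RNA rose by 5.21.

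Neural genes had more of the mark in EBs even where little RNA was found. Of 36 genes, 35 passed, 23 were higher and 2 lower, with a median ratio of 1.49, but only 17 were tested for RNA, of which 12 rose and 3 fell. Emx2, a forebrain factor, went from 2.53 to 17.3 with RNA of 0.034 and 0 FPKM in ES cells and 0.654 and 0.744 in EBs. Pou3f3 (2.13 to 12.9) was also higher without enough RNA for a test. Pax6, an eye and forebrain regulator, had 23.4 and 37.6, RNA of 3.79 and 3.44 FPKM in ES cells and 4.20 and 2.01 in EBs, and H3K27me3 of 25.2 and 160. Tubb3, a tubulin of neurons, was lower (13.9 and 6.27), as was Neurod1 (7.84 and 3.52).

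The clustered Hox genes, which pattern the body axis, were higher as a group. Of 39 genes 38 passed, 32 were higher, 0 were lower and the median ratio was 1.55. RNA rose for all 21 that were tested, none of which reached 1 FPKM in either ES library. Hoxb4 went from 4.08 to 19.9, Hoxd9 from 1.89 to 16.0, Hoxb8 from 1.63 to 12.7 and Hoxa13 from 1.97 to 13.0. The 6 that stayed within 2-fold were Hoxb1, Hoxb9, Hoxb13, Hoxc12, Hoxc13 and Hoxd4, and Hoxd12 was below the filter (0.934 and 1.01). H3K27me3 signal over these genes was also higher in EBs, for example 5.55 and 19.2 over Hoxb4 and 3.55 and 19.6 over Hoxd9. Some Hox loci overlap another locus, so that neighbours may share signal.

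Extraembryonic, imprinted and stromal genes were higher in part. Of 20 passing trophoblast and simple-epithelium genes 13 were higher and 0 lower, among them the keratins Krt18 (2.40 to 12.5) and Krt8 (4.96 to 18.2), whereas Elf5 (1.97 and 2.93) and Gcm1 (1.89 and 1.79) stayed within 2-fold. Of 28 imprinted genes 12 were higher and 0 lower. The growth inhibitor Cdkn1c went from 5.23 to 20.9, Igf2r from 17.5 to 60.1, Dlk1 from 3.82 to 12.9 and Peg3 from 9.92 to 27.9. Of 21 passing fibroblast and stromal genes 11 were higher and 0 lower. Postn went from 0.454 to 3.55 and Acta2 from 0.880 to 4.62, while the collagens Col1a1 (7.07 to 10.0) and Col1a2 (1.60 to 3.44) stayed within 2-fold with RNA rises of 5.22 and 5.69 on the log2 scale.

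**Figure D2:**
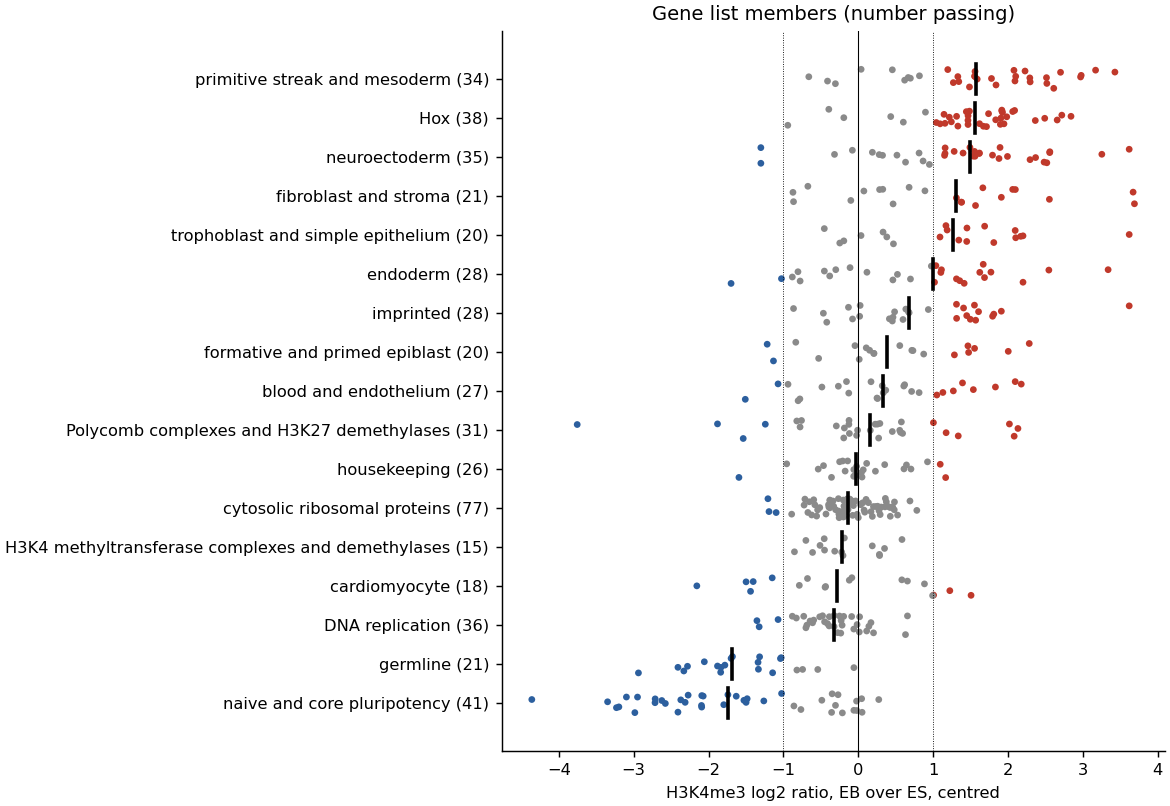
Each point is 1 gene of a list with its centred log2 H3K4me3 ratio of EBs over ES cells on x, coloured red or blue beyond the dotted 2-fold lines, and the black bar is the median of the list. Medians run from -1.74 for pluripotency and -1.68 for germline genes to 1.55 for Hox and 1.57 for mesoderm genes, and the cardiomyocyte list sits at -0.28.

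Contractile and globin genes had large RNA rises and mostly no more of the mark. RNA of all 23 cardiomyocyte genes rose, with a median log2 change of 5.57. Of the 18 that passed the H3K4me3 filter 3 were higher (Tnni1, Myl3 and Slc8a1), 5 lower and 10 within 2-fold, with a median ratio of -0.28. Under scaling to the receptor genes' sum this median was 0.52, so its sign depends on the scaling.

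Single sarcomere genes show the contrast. Myh6, the atrial myosin heavy chain, had 7.42 in ES cells and 3.01 in EBs, with RNA of 3.49 and 3.71 FPKM against 133 and 226. Myl7, a myosin light chain, had 3.74 and 3.07 with an RNA rise of 7.97. Tnnt2, cardiac troponin T, had 1.63 and 3.76 and an RNA rise of 8.54, just inside the 2-fold line at 0.99. Actc1, cardiac actin, was below the filter, at 0.080 and 0.454 (3 and 17 steps), while RNA went from 0.749 and 0.715 FPKM to 1415 and 1021.

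Embryonic globin genes had almost no H3K4me3 signal. Hba-x had 0.667 and 0.427, with RNA of 0.167 and 0.148 FPKM in ES cells and 734 and 165 in EBs. Hbb-bh1 (0.027 and 0.080) and Hbb-y (0.004 and 0.080) were near the floor, and the RNA of Hbb-bh1 rose by 8.60. Both copies of adult alpha-globin, Hba-a1 and Hba-a2, are near-identical and were listed at the floor in both libraries. Of 27 passing blood and endothelial genes 8 were higher and 2 lower although RNA rose for 30 of 32 tested. The higher genes included the VEGF receptor Kdr (8.91 to 24.3) and the regulators Ets1 (4.96 to 25.6), Fli1 (7.55 to 30.5), Tal1 (4.16 to 13.8), Lmo2 (9.95 to 29.5) and Runx1 (25.1 to 58.4). Other endothelial surface genes, Cdh5 (4.78 to 6.96), Tie1 (4.56 to 4.70) and Tek (9.39 to 6.11), stayed within 2-fold, and Pecam1 (24.9 to 13.3) was lower.

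Among all 198 genes whose RNA rose by 4 or more on the log2 scale, 123 were higher in H3K4me3, 60 were within 2-fold, 3 were lower and 12 were below the filter. The 12 had a median locus length of 2.09 kb and median signals of 0.080 and 0.374. The 3 that were lower were Afp, Myl2 and Myh6, named after their values were seen.

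Most chromatin regulators were within 2-fold, as were 12361 of all 15731 genes. None of the 15 passing genes for H3K4 methyltransferase complexes and demethylases crossed 2-fold (range of ratios -0.85 to 0.58), with Kdm5b, an H3K4 demethylase, at 88.3 and 54.9 and Dpy30 at 35.5 and 24.5. RNA fell for 9 of these 15 and rose for 1. Of 31 Polycomb and H3K27 demethylase genes 6 were higher, against 8.09% of all genes. Another 4 were lower, a share close to the 13.3% of all genes. The lower genes were Phc1, Jarid2 (233 to 70.9), Mtf2 (71.8 to 27.7) and Rybp (68.5 to 32.5). The higher genes included Bmi1 (5.68 to 28.4) and the chromobox genes Cbx8 (3.42 to 16.6) and Cbx2 (13.0 to 37.2), and Ezh2 (23.3 and 29.3), Suz12 (27.7 and 30.7) and Rnf2 (27.6 and 28.6) stayed close. Cbx7, the main chromobox gene of ES cells, had 39.8 and 26.4 while its RNA fell by 3.33.

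Most genes of basic cell functions were within 2-fold, as were 12361 of all 15731 genes. Of 36 DNA replication genes 3 were lower and 0 higher (median ratio -0.32), although RNA fell for 24 of 34. The 3 were Prim2 (37.9 to 16.6), Pola1 (20.8 to 9.28) and Pcna (11.0 to 5.82). Chaf1a itself had 24.4 and 20.0, with RNA of 49.5 and 43.0 FPKM in ES cells and 31.7 and 32.1 in EBs, and its locus overlaps Ubxn6. Of 77 ribosomal protein genes 3 were lower and 0 higher (median -0.14, or 0.03 without centring). Of 26 housekeeping genes 2 were higher and 1 lower (median -0.03, or 0.14 without centring).

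Most genes with more of the mark in EBs also had more RNA. Of the 1273 genes with higher H3K4me3, 991 were tested for RNA, and 919 of them (92.7%) rose, 18 fell and 54 were not called. Of all 11299 genes with both measures 41.6% rose and 25.3% fell. The RNA filter favours genes expressed in EBs only, so the share was also taken among genes with at least 1 FPKM in both ES libraries. There, 321 of 375 (85.6%) rose, against 34.2% of all such genes. All 14 genes tested above 8-fold and 115 of 116 between 4-fold and 8-fold rose.

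Genes with less of the mark in EBs more often had less RNA than more. Of the 2097 genes with lower H3K4me3, 1018 were tested for RNA, and 610 (59.9%) fell, 126 rose and 282 were not called. Among those with at least 1 FPKM in both EB libraries, 345 of 667 (51.7%) fell, against 22.9% of all such genes. The share that fell was 54.8% between 2-fold and 4-fold, 78.0% between 4-fold and 8-fold and 90.9% of the 22 tested above 8-fold. Read from the RNA side, 60.6% of the 523 genes with an RNA log2 change of 3 or more were higher in H3K4me3, and 78.6% of the 126 genes with -3 or less were lower. Across the 11299 genes the Spearman correlation was 0.57 and Pearson's was 0.61, given as a description since genes share libraries and are not replicates.

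**Figure D3:**
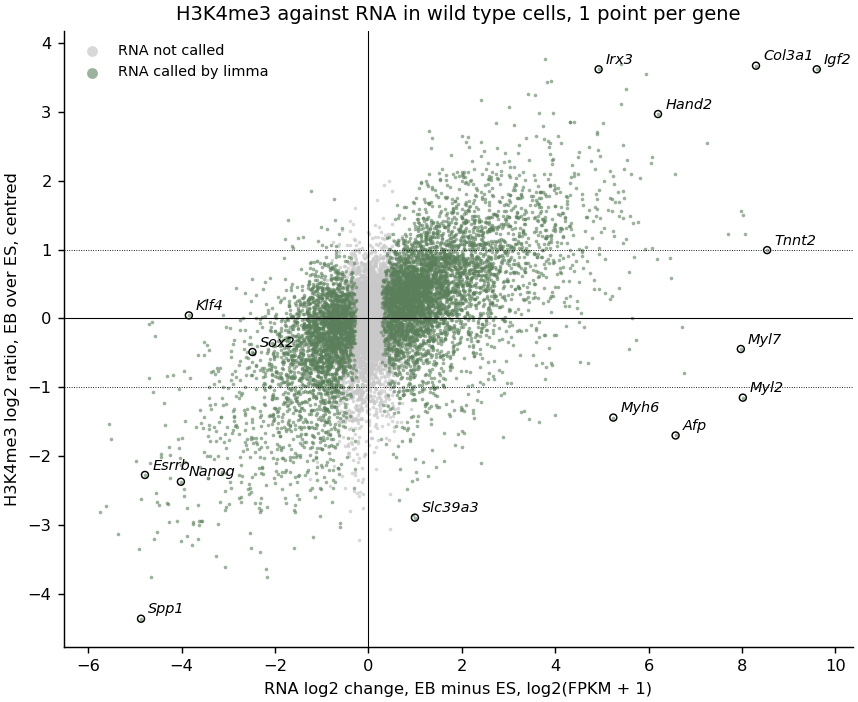
Each of 11299 genes is plotted by its RNA log2 change (x, log2 of FPKM + 1, mean of 2 EB minus mean of 2 ES libraries) and its centred H3K4me3 log2 ratio (y), with genes called by limma in green. Irx3, Igf2 and Col3a1 are high on both axes and Nanog and Spp1 low on both, while RNA fell for Klf4 at a ratio of 0.04 and rose for Myl7 at -0.44.

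Mark and RNA went opposite ways in 126 genes with less of the mark and in 18 with more. The 126 genes with lower H3K4me3 and higher RNA had median signals of 7.52 and 3.00 and a median RNA rise of 1.16 on the log2 scale. The lowest ratios among them were at Slc39a3, a zinc transporter (4.62 to 0.614, RNA change 1.00), and Casq1, a calcium store protein of muscle (9.28 to 1.36, RNA change 0.96). Of the 18 genes with higher H3K4me3 and lower RNA, 17 had loci under 10 kb, and Hist1h4b, Hist1h2ab, Hist1h2bj and Hist1h3c, replication-dependent histone genes, are among the 5 largest. Hist1h4b went from 1.25 to 5.36 with RNA of 3.53 and 2.79 FPKM in ES cells and 1.09 and 0.499 in EBs.

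Genes with more H3K4me3 in EBs were most frequent where ES cells had the most H3K27me3. H3K27me3 values grow with locus length, so loci under 10 kb were placed in 4 groups by their ES signal. H3K4me3 was higher in EBs in 3.53% of the 907 genes with the least H3K27me3, 3.85% of the next 728, 14.7% of 811 and 36.1% of the 806 with the most. The shares with lower H3K4me3 were 8.05%, 8.93%, 20.0% and 14.9%. The group with the most H3K27me3 had a median H3K4me3 signal of 4.78 in ES cells and 9.58 in EBs, against 12.9 and 16.3 in the group with the least.

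**Figure D4:**
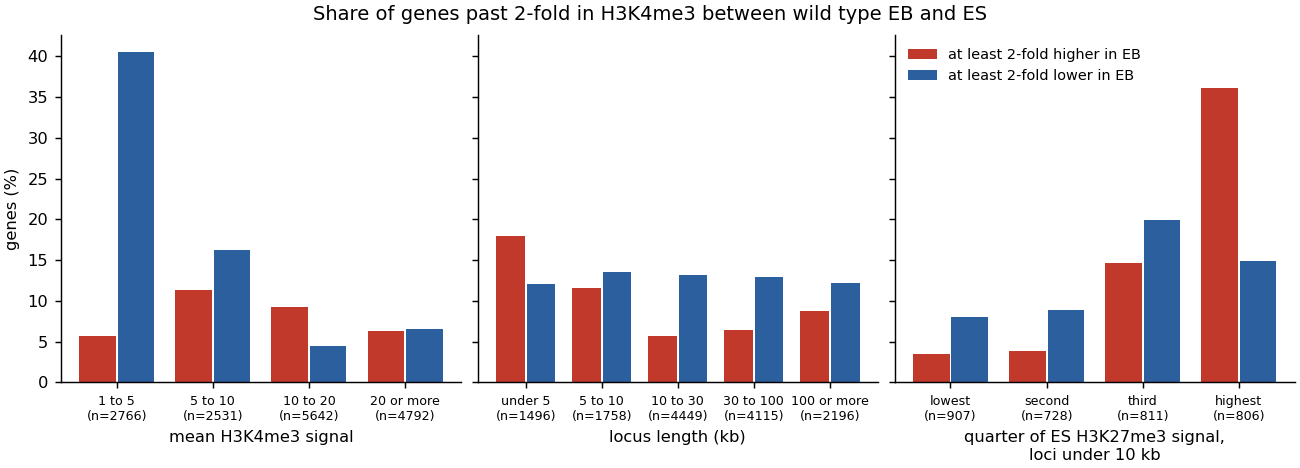
Bars give the percentage of genes at least 2-fold higher (red) or lower (blue) in H3K4me3 in EBs, by mean H3K4me3 signal (left), locus length (middle) and ES H3K27me3 signal of loci under 10 kb (right), with the number of genes under each pair. The share of lower genes is 40.6% at a mean signal of 1 to 5 and the share of higher genes reaches 36.1% where ES H3K27me3 was highest.

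Where H3K4me3 was higher, H3K27me3 was lower at some genes and higher at others. Of the 1273 genes with higher H3K4me3, H3K27me3 was at least 2-fold lower in EBs in 17.8% and at least 2-fold higher in 28.3% of those with enough signal, against 7.42% and 17.8% of all genes with H3K4me3 signal. In the 282 genes with higher H3K4me3 and too little RNA to test, H3K27me3 was higher in 56.6% and lower in 6.25%. In the 123 genes with higher H3K4me3 and an RNA rise of 4 or more, it was lower in 26.1% and higher in 13.4%. Emx2, whose RNA was not tested, had H3K27me3 of 10.6 in ES cells and 31.9 in EBs. In a mixed population both marks can come from different cells, which these bulk libraries cannot separate.

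The knockout pair, which shares no library with the wild type pair, gave smaller ratios. Between p150 knockout EBs and ES cells 198 genes (1.24% of 15915) were at least 2-fold higher and 175 (1.1%) lower. Of the 1246 genes higher in wild type EBs that had enough signal in the knockout pair, 1193 had a ratio above 0 there, with a median of 0.50, and 162 passed 2-fold. Of 2088 lower genes, 1536 had a ratio below 0, with a median of -0.25, and 132 passed 2-fold. Over all genes with signal in both pairs the signs matched in 10880 of 15652, a share near that of the lower genes. The Spearman correlation of both ratios over 15652 genes was 0.55.

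Named genes differ in how much of the contrast is present in the knockout pair. Fgf5 went from 3.66 to 14.1 (ratio 1.88 against 2.28 in wild type) and Irx3 from 3.07 to 11.8 (1.87 against 3.62). Col3a1 went from 0.614 to 1.17 and Lum from 0.027 to 0.080. Both genes lie below a mean signal of 1 in the knockout pair, and the Lum values there rest on very few steps. Pou5f1 (40.3 and 39.3), Nanog (29.9 and 28.1), Esrrb (140 and 143) and Tdh (60.6 and 61.6) were nearly equal in knockout ES cells and EBs. Otx2 was 6.78 and 17.6 in the knockout pair against 7.92 and 9.60 in wild type. With 1 library in each of the 4 groups, none of these differences was tested.

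**Figure D5:**
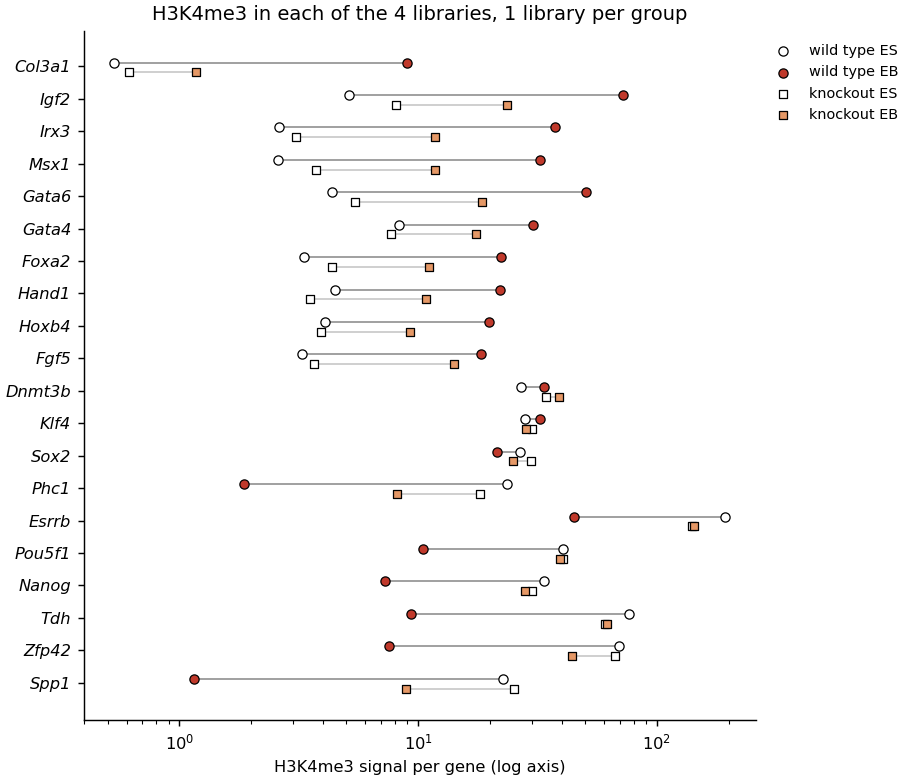
H3K4me3 signal of 20 named genes in each of the 4 libraries, on a log axis, with circles for wild type, squares for knockout, open symbols for ES cells and filled ones for EBs. Wild type EBs stand apart from wild type ES cells at every gene but Dnmt3b, Klf4 and Sox2, and at Pou5f1, Nanog, Esrrb and Tdh the knockout EB and ES symbols nearly coincide.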

How the data were processed

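H3K4me3 and H3K27me3 come from tables of signal per gene that the authors deposited. The tables are named RPKM on promoters, but the values grow with locus length (Spearman 0.49 in ES cells and 0.44 in EBs). The window is not given in the sources used here, so the values were treated as a signal. Ratios compare the same gene between libraries. Levels of different genes, where set side by side, were not corrected for locus length. RNA is FPKM per gene as deposited by the authors. The submitters' processing notes name mm10, Bowtie2, Cufflinks 2.2.1, DESeq2, HTSeq and STAR 2.6.0a, without roles.

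Log2(signal + 0.1) of EBs minus ES cells was centred on the median of genes with a mean signal of at least 1 and counted past 2-fold, with no test. RNA was fitted as log2(FPKM + 1) with limma 3.58.1 in R 4.3.3 over 8 libraries in 4 groups, for 15428 genes that reached 1 FPKM in 2 or more libraries, and called at a Benjamini-Hochberg adjusted p under 0.05. This scale understates the change of low genes. For genes listed more than once the entry with the highest mean was kept, and 120 entries were left out. Nothing says that RNA libraries came from separate cultures, so p-values measure the spread between libraries, which may be technical. Scripts were tested on simulated data. Alternatives changed scaling, pseudocount, filter, locus length and RNA libraries.

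Named genes are 24 anchors, the 10 highest and 10 lowest ratios among genes with a locus (without gene models and receptor genes) and up to 4 members per list with the largest ratio. Some genes, such as Dppa3, Igf2 and Cdx2, are on several lists. Other list members are named by role, and genes with opposite mark and RNA were added after the data were seen. The comparison, lists and anchors were chosen with earlier results of these data known.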

Additional observations from a re-analysis of the deposited data

Results flagged for a closer look

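For 14 named genes or list members that were past 2-fold in wild type, with a mean signal of at least 1 in both pairs, the centred log2 H3K4me3 ratio had the opposite sign in the knockout pair. Each group has 1 library, and none of these differences was tested. Most of the knockout ratios are close to 0, so that the sign itself says little. Slc39a3, a zinc transporter, had -2.89 in wild type (4.62 in ES cells, 0.614 in EBs) and 0.41 in the knockout pair (4.08 and 5.60).

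Of the pluripotency list, Tcl1 had -2.71 in wild type and 0.34 in the knockout pair, Fgf4 -1.74 and 0.11, Etv5 -1.48 and 0.13, Nr5a2 -1.26 and 0.092, and Prdm14 -1.03 and 0.57. Of the germline list, Nanos3 had -2.06 and 0.090, Stra8 -1.83 and 0.069, Sycp3 -1.70 and 0.47, and Smc1b -1.32 and 0.22. The others were Rab7 (-1.59 and 0.040), Grhl2 (-1.22 and 0.26), Pecam1 (-1.07 and 0.16) and Dab2, the only one that was higher in wild type EBs (1.04 and -0.040). The deposited Dab2 signal was 8.67 in both knockout libraries, so its sign there comes from the centring.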

How the results depend on the processing

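No library of the H3K4me3 pair has a replicate, and ratios of genes with few steps are coarse. No paired analysis was possible because the labels number only the second RNA replicate of each group, so the groups share fewer than 2 numbers.

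The higher and lower counts (1273 and 2097) were 1156 and 1848 with a pseudocount of 0.5, 1317 and 2018 on library totals, 1787 and 2314 without a filter, 922 and 1140 at a mean of at least 5, 345 and 495 for loci under 10 kb, and 1035 and 1565 for non-overlapping loci. The percentages of higher genes with higher RNA and of lower genes with lower RNA were 89.3% and 64.4% without centring, and the same when centred on receptor genes. They were 95.6% and 63.1% at a mean of at least 5, and the first was 89.6% without a filter. Scaling to the receptor genes' sum, chosen after seeing the data, gave 6142 and 642 genes and 65.6% and 75.4%. It also put the medians above 0 for cardiomyocyte (0.52), H3K4 enzyme (0.59), DNA replication (0.49), ribosomal (0.68) and housekeeping genes (0.78). The ribosomal median was 0.032 and the housekeeping median 0.14 without centring or centred on receptor genes, and 0.0015 and 0.11 without a filter.

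RNA calls, 5576 higher and 3824 lower, were 4478 and 5188 after quantile normalization, which moved the median gene from 0.12 to -0.11, and 3324 higher at a mean of at least 5 FPKM. Leaving out 1 library gave 4741 to 5566 higher and 3074 to 3845 lower. RNA changes that crossed 0 were small. After quantile normalization they were Rps29 (0.13) and Sox3 (-0.076). Over the fits that each left out 1 library, the lowest and highest values were -0.046 and 0.20 for Eef2, -0.16 and 0.25 for Rps4x, -0.62 and 0.17 for Pax6, -0.39 and 0.10 for Rps29, and -0.53 and 0.11 for Wrb, and the cause was not tested.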

Other observations

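Gene families also differed in direction, and several Sox and Nkx genes are members of the lists already described. Of 19 Sox genes 10 were at least 2-fold higher in EBs and 1 lower, with median signals of 7.20 and 14.2, and of 13 Nkx homeobox genes 8 were higher and 0 lower. Of 51 passing replication-dependent histone genes 19 were higher and 2 lower, with medians of 2.59 and 5.90. RNA rose for 4 and fell for 11 of the 32 of these that were tested. Their median locus is 0.593 kb long, and among all loci under 5 kb 17.98% were higher. In the knockout pair 23 of the 51 were higher and 0 lower.

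Clustered protocadherin beta genes, which give neurons surface identity, were lower in 8 of 15 passing genes (medians 2.29 and 1.04). Transmembrane serine proteases of the Tmprss family were lower in 9 of 12 (3.48 and 1.51). The last 2 families have medians in the signal range in which 40.6% of genes were lower. By chromosome, the share of genes that were higher ran from 5.84% on chromosome 11 to 15.4% of 455 genes on the X chromosome, and 13.7% on chromosome 13.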
